A study of Mus musculus with 12 samples.

Results

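Peroxisomes are membrane-bound organelles that shorten very long and branched fatty acids, start the synthesis of ether lipids and break down the hydrogen peroxide made on the way. The genes described here are peroxins (Pex genes), which build and divide the organelle, together with the enzymes and carriers that work inside it. They were given as a list of 40 gene symbols and matched by symbol to the array, where 39 were found among 12393 genes with a probe set of a single symbol. Agps, an enzyme of ether lipid synthesis, was not analysed here. Each gene was represented by the probe set with the highest mean over the 12 arrays. Of the 39 genes, 36 had a mean intensity at or above the 30th percentile of all genes, 132.3, and were tested.

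The arrays measured total RNA from fibroblasts of PPARγ-knockout mouse embryos, differentiated for 6 days. PPARγ is the nuclear receptor at the head of the fat cell programme. The groups, of 3 arrays each, were cells given S273A PPARγ and no ligand, a form with alanine in place of a serine; cells given wild-type PPARγ and treated for 24 h with 1 µM rosiglitazone; cells given wild-type PPARγ and treated for 24 h with 1 µM MRL24; and cells given wild-type PPARγ and no ligand, called wild-type below. All 4 groups thus share the loss of the endogenous receptor and its replacement by an introduced one. The titles say only that this receptor is a mutant, and S273A is taken from the description of the series. The labels name a single set of cells for each receptor form, so that receptor form and cell population cannot be told apart, and they give neither a vehicle for the unliganded cells nor the cultures behind the arrays. The p-values thus cover array-to-array spread alone, which may be technical.

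PPARγ works as a heterodimer with a retinoid X receptor on DNA sites in which AGGTCA is repeated after a single spacer base. Several peroxisomal genes of fatty acid oxidation are classic targets of the PPAR family, best known from the liver of rodents given PPARα agonists, where the organelle itself multiplies. In fat cells peroxisomes grow in number during differentiation. Rosiglitazone, a thiazolidinedione, is a full agonist of PPARγ, and MRL24 is another ligand of the receptor.

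The array medians lay between 296.8 and 314.9 intensity units. Wild-type replicate 2 stood apart, with a score of -16.07 on principal component 1 (25.8% of the variance), against -6.05 to 7.92 on the other 11 arrays. Every comparison with wild-type cells uses it, so counts are also given without it. Pparg itself passed the test in none of the 4 comparisons (log2 changes of -0.11 to 0.24, adjusted p = 0.173 to 0.941). The 0.24 was that of S273A over wild-type, with an interval of 0.03 to 0.45 that lies above 0 (adjusted p = 0.173). The labels call the cells adipocytes. Of the 8 adipocyte markers 7 were on the array, and Adipoq and Cidec among them were below the intensity filter, while all 6 fibroblast markers were above it. Of 5 hepatocyte markers, 4 were on the array and 1, Ttr, was above the filter.

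In limma's test, 7 of the 36 peroxisomal genes rose with rosiglitazone and none fell. Acaa1b, a peroxisomal thiolase, rose 4.96-fold, and Hsd17b4, Scp2, Pex5, Pex11a, Pex14 and Far1 rose by 1.15-fold to 1.30-fold. With MRL24 Acaa1b and Pex16 rose and none fell. With S273A none of the 36 passed in either direction. Between the ligands, Acaa1b and Hsd17b4 were higher with rosiglitazone than with MRL24 and no gene was lower.

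These counts were read against all 8675 genes tested. The list was chosen with earlier results of these data known, so a share above that of all genes is not independent support. With rosiglitazone the 7 genes were 19.4% of the list, while 3.94% of all genes rose, 4.58% fell and 8.52% changed in either direction. With the intensity filter at the 50th percentile, 6 of 25 genes rose, against 5.52% of all genes higher and 12.2% called in either direction. With MRL24 the 2 genes were 5.56% of the list, against 5.86% of all genes called in either direction 3.39% called higher and 2.47% called lower, so the share lay near the background. With S273A the 36 genes gave no call, against 7.78% of all genes, of which 2.31% were higher and 5.48% lower. Rosiglitazone over MRL24 gave 5.56% of the list and 2.66% of all genes, 1.5% higher and 1.16% lower. The median log2 change of the list was 0.03 with rosiglitazone against a median of -0.0027 over all genes. In that comparison 22 of 36 were above 0, against 49.2% of all genes; it was 19 with MRL24, against 52.6%, and 21 for rosiglitazone over MRL24, against 44.2%.

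**Figure D1:**
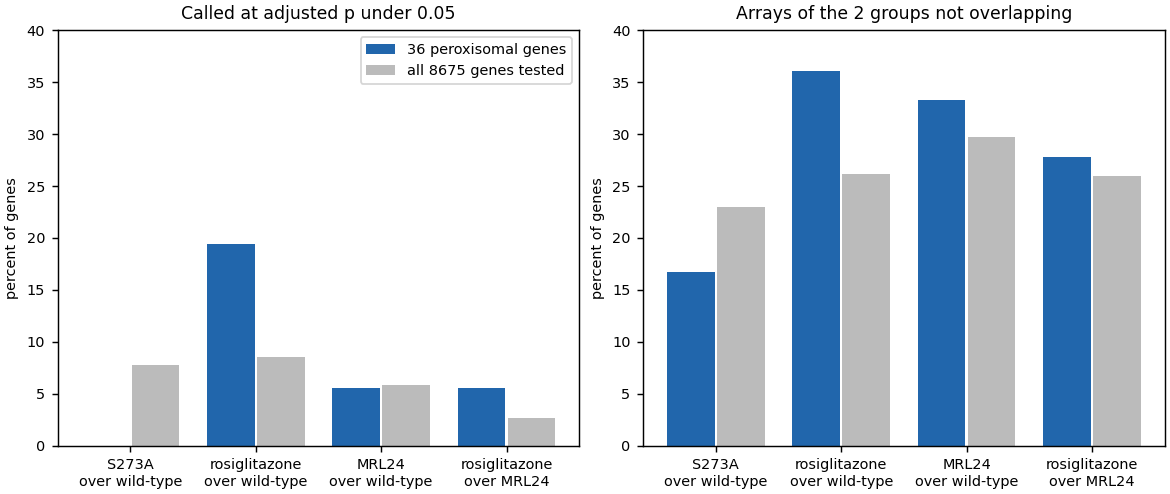
Percent of genes called at an adjusted p under 0.05 (left) and percent whose arrays in the 2 groups did not overlap (right), in either direction, for the 36 peroxisomal genes (blue) and all 8675 genes tested (grey), by comparison. The share called with rosiglitazone over wild-type was 19.4% of the peroxisomal genes and 8.52% of all genes, while with MRL24 the shares were 5.56% and 5.86%.

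Without regard to the test, the arrays of the 2 groups did not overlap for 13 of 36 genes with rosiglitazone, 9 higher and 4 lower. This was 36.1%, against 26.2% of all genes (12.1% higher and 14.2% lower). For MRL24 it was 12 genes (9 higher and 3 lower), or 33.3% against 29.7% of all genes (15.6% higher and 14.2% lower). The 9 include Nudt7, whose mean passed the intensity filter only narrowly. For S273A it was 6 genes (4 higher and 2 lower), or 16.7% against 23.0% of all genes (9.11% higher and 13.9% lower). For rosiglitazone over MRL24 it was 10 genes (9 higher and 1 lower), or 27.8% against 26.0% of all genes (11.2% higher and 14.8% lower).

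The β-oxidation enzymes held the change of greatest size in the list. Acaa1b encodes a 3-ketoacyl-CoA thiolase, which performs the last step of each round of peroxisomal chain shortening. It read 756, 717 and 735 with rosiglitazone, 246, 247 and 193 with MRL24, 166, 116 and 146 in S273A cells, and 118, 144 and 147 in wild-type cells. The rosiglitazone arrays lay above all others, the MRL24 arrays lay between, and the S273A and wild-type arrays overlapped. The log2 change was 2.31 with rosiglitazone over wild-type (SE 0.13, adjusted p = 1.67e-08, n = 3 arrays per group). It was 0.68 with MRL24 over wild-type (SE 0.13, adjusted p = 0.0104). Both comparisons use the same wild-type arrays. The ligands were therefore also compared directly, and Acaa1b was 3.09-fold higher with rosiglitazone than with MRL24 (log2 difference 1.63, SE 0.13, adjusted p = 3.48e-06). The S273A difference of 0.05 had an interval of -0.23 to 0.33 (adjusted p = 0.870). The MRL24 call was lost without MRL24 replicate 2 (adjusted p = 0.0504) and in a fit to the 6 arrays of those groups alone (0.0526).

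The closely related thiolase gene Acaa1a, on the same chromosome, was called in no comparison. It read 729, 761 and 795 with rosiglitazone, 803, 714 and 757 with MRL24, 826, 829.7 and 744 in S273A cells, and 853, 803 and 839 in wild-type cells. The rosiglitazone arrays all lay below the wild-type arrays, and the log2 change of -0.12 was not called (adjusted p = 0.275). The MRL24 arrays overlapped none of the wild-type arrays either (-0.13, adjusted p = 0.226). A second probe set read 460.2, 423 and 475 with MRL24, below the 573, 528 and 566 of wild-type cells, and changed by -0.29 with MRL24 and by -0.09 with rosiglitazone. Both Acaa1a probe sets carry the suffix that marks probes shared with other transcripts. Signal from similar transcripts thus cannot be told apart from their own.

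Hsd17b4, the D-bifunctional protein that hydrates and dehydrogenates the acyl chain before the thiolase acts, read 1068, 949 and 1016 with rosiglitazone. It read 826, 812 and 807 with MRL24, 770.1, 846 and 814 in S273A cells, and 714, 841 and 847 in wild-type cells. On this tested probe set only the rosiglitazone arrays stood clear of the wild-type arrays. The gene rose by 0.33 on the log2 scale with rosiglitazone (SE 0.07, adjusted p = 0.00833). With MRL24 over wild-type the difference was 0.03 (interval -0.12 to 0.18, adjusted p = 0.844). Rosiglitazone over MRL24 gave 0.30 (SE 0.07, adjusted p = 0.0339). That last call was lost without rosiglitazone replicate 1 (adjusted p = 0.123) or 3 (0.126) or MRL24 replicate 1 (0.0935), 2 (0.125) or 3 (0.125), and without the intensity filter (0.0595). The tested Hsd17b4 probe set carries the same suffix for shared probes as the Acaa1a probe sets. A second probe set of Hsd17b4, without that suffix, changed by 0.24 with rosiglitazone over wild-type and by 0.19 with rosiglitazone over MRL24. There the rosiglitazone arrays, at 826, 822 and 899.6, overlapped with the wild-type arrays, at 840, 650 and 676. The rosiglitazone arrays lay above the MRL24 arrays, at 753, 711 and 762.

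Scp2 encodes a thiolase for branched chains fused to a sterol carrier protein. It read 4244, 4361 and 4493 with rosiglitazone, 4085, 4091 and 4027 with MRL24, 4019.7, 4215 and 3948 in S273A cells, and 3812, 3542 and 3812 in wild-type cells. The arrays of all 3 other groups lay above the wild-type arrays. The rise passed the test with rosiglitazone (log2 change 0.23, SE 0.04, adjusted p = 0.00338). MRL24 gave 0.13 (adjusted p = 0.0864) and S273A gave 0.13 (adjusted p = 0.0966), and neither passed. All 4 Scp2 probe sets were higher with rosiglitazone than in wild-type cells, by 0.14 to 0.30. All were also higher with MRL24, by 0.13 to 0.32, and in S273A cells, by 0.06 to 0.30.

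The other β-oxidation genes on the tested list were Crot, which exports shortened chains as carnitine esters, the racemase Amacr, the reductases Decr2 and Pecr, and the thioesterase Acot8. None of these 5 was called in any comparison. Amacr read 316, 348 and 302 with rosiglitazone and 302, 336 and 330.2 in S273A cells, against 380, 364 and 408 in wild-type cells. Its arrays did not overlap with wild-type in either comparison, and both differences missed the threshold (-0.24, adjusted p = 0.0840, and -0.24, adjusted p = 0.0989). The MRL24 arrays of Amacr, at 336, 349 and 349.9, also lay below the wild-type arrays (-0.15, adjusted p = 0.290). Over all 12 arrays Crot ranged from 177 to 238, Pecr from 265 to 367, Decr2 from 322 to 387 and Acot8 from 255 to 366. Of the 9 tested β-oxidation genes, 3 were higher and none lower with rosiglitazone, against 3.94% and 4.58% of all genes, and the median change was -0.01.

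**Figure D2:**
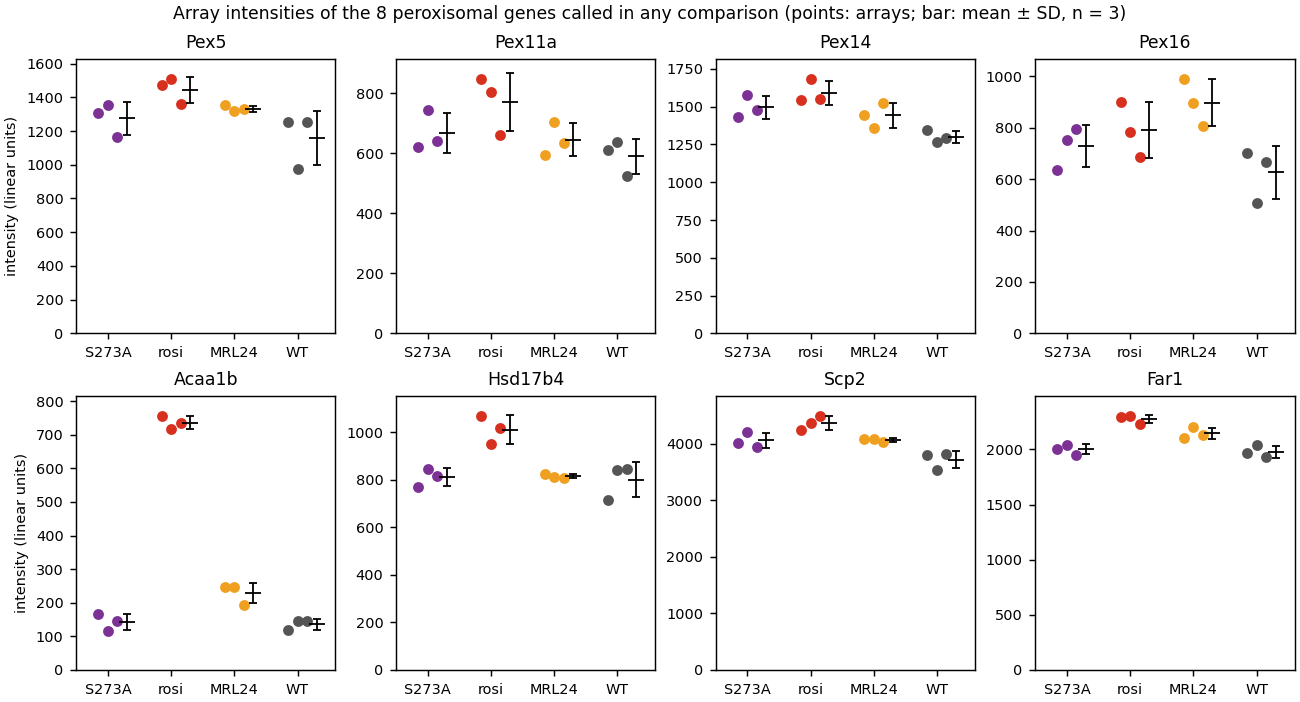
Linear array intensity of the 8 peroxisomal genes called in any comparison, with the S273A, rosiglitazone (rosi), MRL24 and wild-type (WT) arrays from left to right, points for arrays and bars for the mean ± SD (n = 3). Acaa1b reads 717 to 756 with rosiglitazone against 118 to 147 in wild-type cells, while the other genes move by small amounts on an axis that starts at 0.

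The promoters of 4 genes are printed because they set the gene with the greatest response beside its close relative, which was not called, and the genes with receptor-type motifs beside those without. The windows are RefSeq promoters of GRCm38.p6, 250 bases before to 50 bases after the annotated start, read 5′ to 3′ on the gene's strand. Capitals mark AGGTCA on either strand and any match to the repeat named above (AGGTCA, any base N, AGGTCA; both strands) with at most 2 of its 12 fixed letters different. The Acaa1b window is chr9:119157044-119157343 on the minus strand, the Acaa1a window chr9:119341044-119341343 on the plus strand, the Scp2 window chr4:108118498-108118797 on the minus strand and the Cat window chr2:103485104-103485403 on the minus strand.
Acaa1b: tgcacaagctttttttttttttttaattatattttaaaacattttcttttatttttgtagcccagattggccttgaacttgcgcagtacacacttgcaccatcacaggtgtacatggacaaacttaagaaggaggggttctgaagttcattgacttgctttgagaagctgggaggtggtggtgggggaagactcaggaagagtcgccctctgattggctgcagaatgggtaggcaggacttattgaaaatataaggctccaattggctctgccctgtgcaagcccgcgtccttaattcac
Acaa1a: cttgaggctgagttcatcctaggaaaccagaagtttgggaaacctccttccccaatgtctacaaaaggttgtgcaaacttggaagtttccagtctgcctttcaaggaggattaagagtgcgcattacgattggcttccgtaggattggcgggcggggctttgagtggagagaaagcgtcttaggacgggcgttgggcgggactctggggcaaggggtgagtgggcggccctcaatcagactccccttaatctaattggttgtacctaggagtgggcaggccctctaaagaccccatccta
Scp2: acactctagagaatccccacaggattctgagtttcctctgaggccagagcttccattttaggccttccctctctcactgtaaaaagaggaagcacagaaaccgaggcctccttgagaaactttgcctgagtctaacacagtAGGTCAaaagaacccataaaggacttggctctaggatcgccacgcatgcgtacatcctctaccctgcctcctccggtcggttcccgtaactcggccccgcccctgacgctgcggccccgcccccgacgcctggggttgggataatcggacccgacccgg
Cat: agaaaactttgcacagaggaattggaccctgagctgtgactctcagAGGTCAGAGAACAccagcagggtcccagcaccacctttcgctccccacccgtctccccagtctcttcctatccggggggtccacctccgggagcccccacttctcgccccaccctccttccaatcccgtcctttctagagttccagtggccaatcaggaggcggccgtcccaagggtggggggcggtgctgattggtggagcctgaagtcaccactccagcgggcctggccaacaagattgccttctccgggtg

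Windows were found for 32 of the 40 listed genes, 39 windows in all. The repeat, with up to 2 differences, stood in 1 of them (2.56%), that of Cat, as AGGTCAGAGAACA. In all 32851 promoter windows the share was 3.86%. None of the 8 windows of the rosiglitazone-responsive genes held it; these cover 6 of the 7 genes, with 3 windows for Pex5. AGGTCA alone stood in 3 member windows (7.69%), those of Cat, Phyh and Scp2, against 16.3% of all windows. The AGGTCA of Cat is the start of its repeat match. A match describes letters only, and the absence of one says nothing about sites outside these windows. Cat encodes catalase, which breaks down hydrogen peroxide. It read 1866, 1675 and 1835 with rosiglitazone and 1789.8, 1903 and 1532 in wild-type cells, and was not called in any comparison.

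Among the peroxins, 3 of 11 rose with rosiglitazone and none fell, against 3.94% of all genes higher and 4.58% lower, and their median log2 change was 0.14. Pex14 sits in the docking complex of the membrane, where cargo receptors arrive. It read 1541, 1681 and 1549.7 with rosiglitazone, 1445, 1357 and 1525 with MRL24, 1431, 1577 and 1479 in S273A cells, and 1346, 1268 and 1292 in wild-type cells. All 9 arrays of the other groups lay above the 3 wild-type arrays. Rosiglitazone raised it by 0.29 on the log2 scale (SE 0.06, adjusted p = 0.00678). The S273A difference was 0.20 (SE 0.06, adjusted p = 0.0565) and the MRL24 difference 0.14 (adjusted p = 0.147), and neither passed. The S273A difference did pass with all arrays set to the same median (0.0417), after quantile normalization (0.0305), with the filter at the 50th percentile (0.0442) and with the mean of all probe sets of each gene (0.0463).

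Pex5 is the cycling receptor that recognises the carboxy-terminal targeting signal of most matrix enzymes and carries them to that complex. It read 1471, 1506 and 1358 with rosiglitazone, 1353, 1319 and 1328 with MRL24, 1306, 1355 and 1164 in S273A cells, and 1252, 975 and 1251 in wild-type cells. The arrays of both ligands lay above the wild-type arrays, and wild-type replicate 2 was the low array. The log2 change with rosiglitazone was 0.32 (SE 0.09, adjusted p = 0.0284), and it was 0.20 (adjusted p = 0.0892) without wild-type replicate 2. The call was also lost without rosiglitazone replicate 1 (0.0856) or 2 (0.118), without the filter (0.0606) and in the 6-array fit (0.0942). A second Pex5 probe set changed by 0.48.

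Pex11a acts in the elongation and division of the organelle. In the order of protein-coding genes in RefSeq it stands next to Plin1, the lipid droplet coat protein of fat cells, which was not analysed here. It read 845, 802 and 661 with rosiglitazone, 594, 704 and 634.5 with MRL24, 621, 743 and 639 in S273A cells, and 609, 636 and 523 in wild-type cells. The rosiglitazone arrays were above the wild-type arrays but spread widely. The log2 change was 0.37 (SE 0.10, adjusted p = 0.0326), and a second probe set changed by 0.40. It missed the threshold without wild-type replicate 3 (adjusted p = 0.105) or rosiglitazone replicate 1 (0.129) or 2 (0.124), without the filter (0.0702) and in the 6-array fit (0.0776).

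Pex16, which helps bring newly made membrane proteins to the organelle, was the peroxin called with MRL24. It read 988, 898 and 807 with MRL24, 902, 783 and 686.5 with rosiglitazone, 637, 753 and 795 in S273A cells, and 703, 509 and 668 in wild-type cells. The MRL24 arrays lay above the wild-type arrays, and the rosiglitazone arrays overlapped with both. The log2 change was 0.52 with MRL24 (SE 0.12, adjusted p = 0.0268) and 0.33 with rosiglitazone (SE 0.12, adjusted p = 0.108). The ligands differed by -0.18 (interval -0.44 to 0.08, adjusted p = 0.522), so no difference between them was shown. The MRL24 call was lost without wild-type replicate 2 (log2 change 0.38, adjusted p = 0.105), without MRL24 replicate 1 (0.0941), 2 (0.0813) or 3 (0.0541), without the filter (0.0673) and in the 6-array fit (0.0607).

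The other 7 peroxins passed in no comparison. Pex6, an ATPase that recycles the receptor, read 1331, 1424 and 1472.5 with MRL24 and 1221, 1518 and 1411 with rosiglitazone, against 1318, 1060.0 and 1178 in wild-type cells. The MRL24 arrays did not overlap with wild-type (0.25, adjusted p = 0.0862), and the rosiglitazone arrays did (0.22, adjusted p = 0.126). Without wild-type replicate 1 both passed (adjusted p = 0.0314 with MRL24 and 0.0453 with rosiglitazone), and without rosiglitazone replicate 1 the rosiglitazone difference passed (0.0470). From the brightest to the dimmest, the Pex6 probe sets changed by 0.22, 0.27, 0.10, 0.10 and -0.46 with rosiglitazone over wild-type. With MRL24 over wild-type they changed by 0.25, 0.25, 0.09, 0.01 and -0.06. Pex3, the membrane anchor to which Pex19 delivers membrane proteins, read 1003, 998 and 1058 with rosiglitazone, below the 1102, 1202 and 1206 of wild-type cells (-0.19, adjusted p = 0.0869). The mean of its probe sets gave -0.26 and passed (adjusted p = 0.0117). Over the 12 arrays Pex19 ranged from 549 to 678, the docking protein Pex13 from 1792 to 2031, the ubiquitin ligase subunit Pex2 from 409.8 to 532, Pex7, receptor for the amino-terminal targeting signal, from 536 to 662, and Pex26, which anchors Pex6, from 257 to 320.0.

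**Figure D3:**
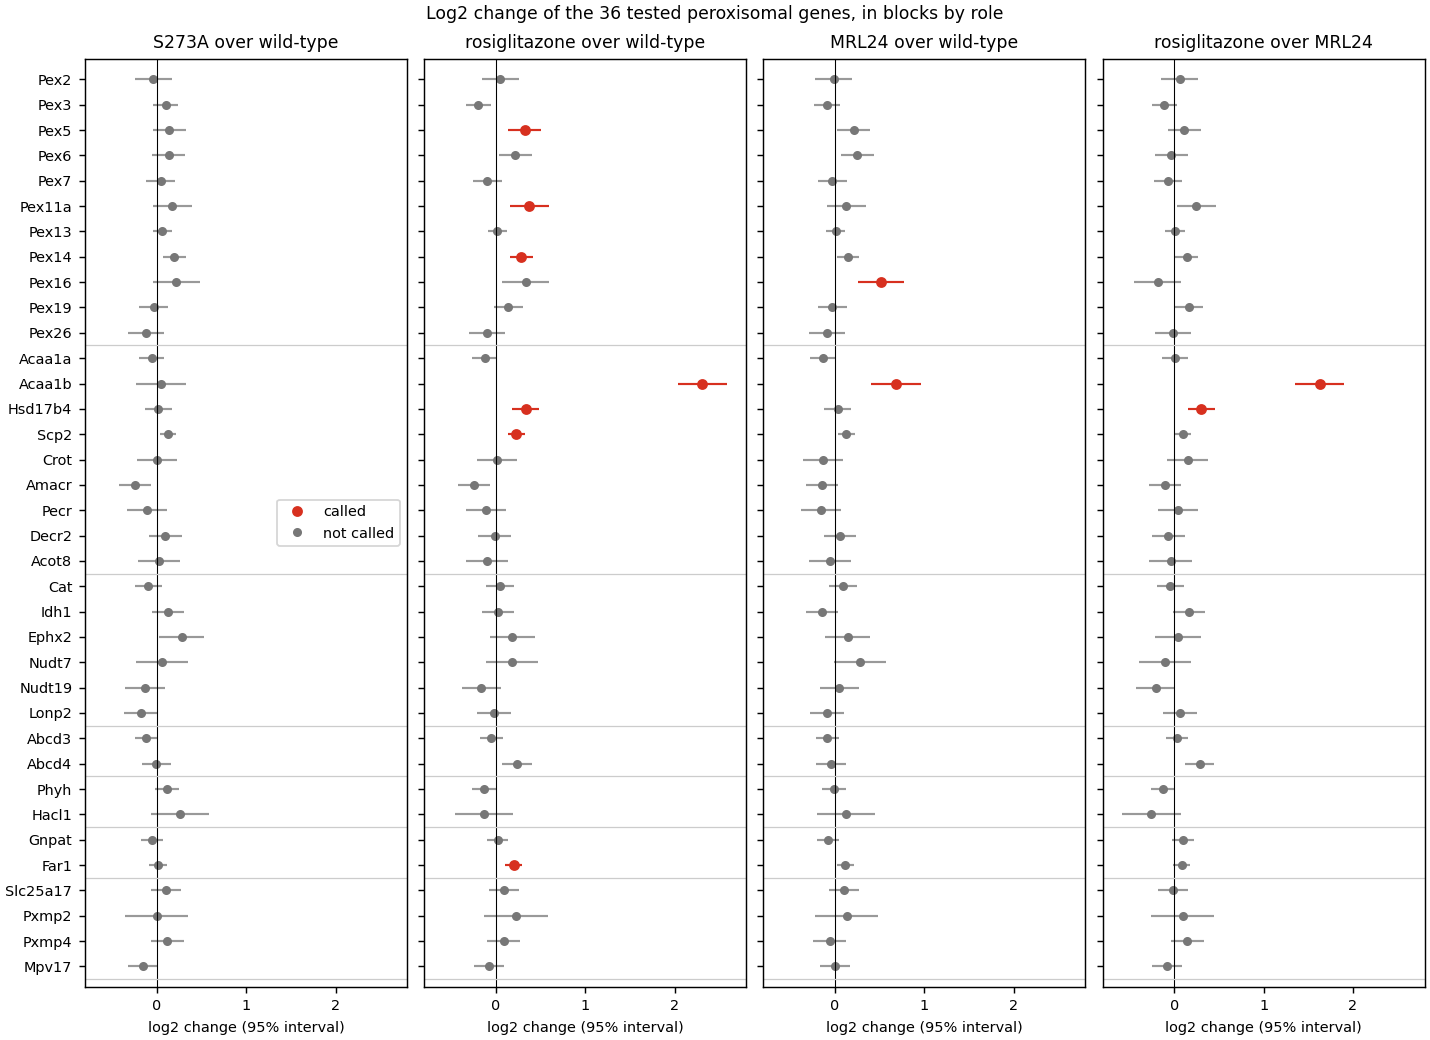
Log2 change with its 95% interval for the 36 tested peroxisomal genes in 4 comparisons, in blocks by role, with called genes in red. The interval of Acaa1b with rosiglitazone over wild-type, centred on 2.31, lies far from those of the other genes, and no interval in the S273A panel is red.

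In ether lipid synthesis, Far1 reduces fatty acyl-CoA to the alcohol that forms the ether bond. It read 2294, 2304 and 2230.1 with rosiglitazone, 2101, 2202 and 2133 with MRL24, 2006, 2043 and 1954 in S273A cells, and 1969, 2037 and 1930.2 in wild-type cells. The rosiglitazone arrays lay above all 9 others, and the MRL24 arrays also lay above the wild-type arrays. The log2 change was 0.20 with rosiglitazone (SE 0.05, adjusted p = 0.0110) and 0.12 with MRL24 (adjusted p = 0.127). The rosiglitazone call was lost without rosiglitazone replicate 2 (0.0542) and in the 6-array fit (0.0600). The 5 Far1 probe sets disagreed, at 0.20, -0.05, 0.37, -0.04 and 0.54 from the brightest to the dimmest. With the mean of all 5 the MRL24 difference was 0.21 and passed (adjusted p = 0.0147). Gnpat, the acyltransferase that starts the pathway, ranged from 745 to 842 and was not called.

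**Figure D4:**
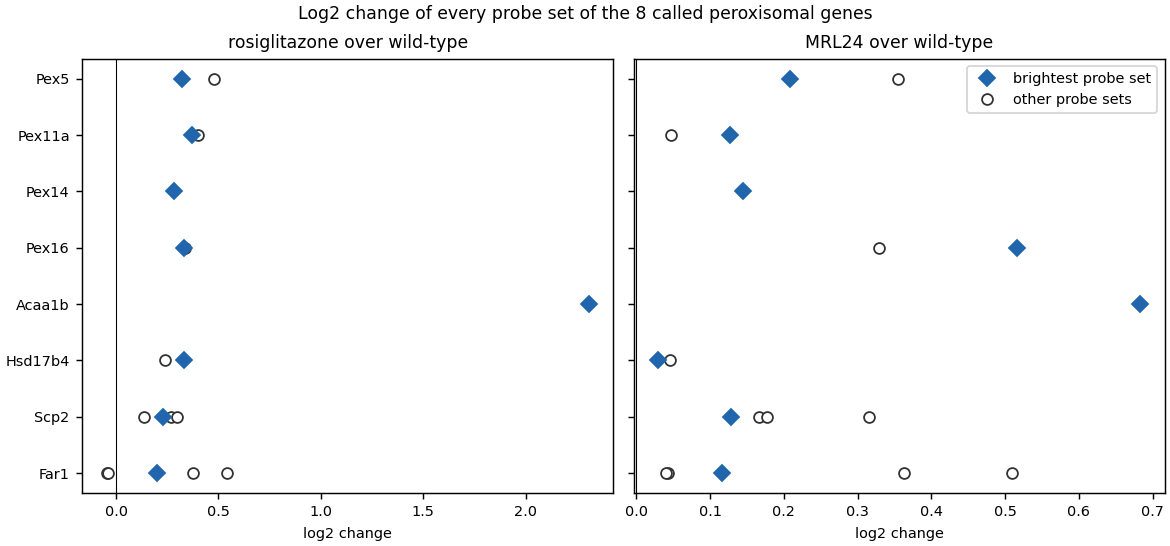
Log2 change of every probe set of the 8 called genes with rosiglitazone over wild-type (left) and MRL24 over wild-type (right), with a diamond for the brightest probe set, the one tested, and circles for the others. All probe sets of Scp2 lie above 0 in both panels, while those of Far1 fall on both sides of 0 on the left. Acaa1b and Pex14 have a single probe set.

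Of the transporters, Abcd3, which imports long-chain acyl-CoA into the organelle, ranged from 1453 to 1753 and was not called. Abcd4 is a relative of this family that works in cobalamin export from lysosomes. It read 425, 419.4 and 419.1 with rosiglitazone, 332, 335 and 364 with MRL24, 328.5, 354 and 380.4 in S273A cells, and 348, 355 and 361 in wild-type cells. The rosiglitazone arrays lay above all the others. The difference was 0.28 for rosiglitazone over MRL24 (SE 0.08, adjusted p = 0.0646) and 0.24 for rosiglitazone over wild-type (SE 0.08, adjusted p = 0.0694), and both missed the threshold. Rosiglitazone over MRL24 passed without wild-type replicate 2 (0.0447) and with 4 other settings named in the closing section. A second Abcd4 probe set gave -0.19 for rosiglitazone over MRL24.

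α-Oxidation removes a single carbon from chains that carry a methyl branch. Hacl1, the lyase of this route, read 195, 191 and 202 in S273A cells, 156, 185 and 105 with rosiglitazone, 176.7, 177 and 176 with MRL24, and 174, 166 and 144 in wild-type cells. The S273A arrays lay above all the others, with a log2 difference from wild-type of 0.26 (SE 0.15, adjusted p = 0.347), which was not called. The hydroxylase Phyh read 668, 663 and 637 in S273A cells and 519, 579 and 547 with rosiglitazone, against 596, 613 and 599.7 in wild-type cells. S273A arrays were above and rosiglitazone arrays below wild-type, at 0.12 (adjusted p = 0.299) and -0.13 (adjusted p = 0.217), and neither difference was called.

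None of the 6 redox enzymes, hydrolases and proteases was called. Ephx2, the soluble epoxide hydrolase, read 889, 764 and 1191 in S273A cells, 895, 858 and 857 with rosiglitazone, 801, 792 and 948 with MRL24, and 812, 702 and 782 in wild-type cells. S273A arrays overlapped with wild-type. The S273A difference of 0.28 (SE 0.12, adjusted p = 0.178) passed without S273A replicate 2 (0.42, adjusted p = 0.0427). Nudt7, a coenzyme A diphosphatase, read 139, 146 and 166 with MRL24, above the 116, 128 and 119 of wild-type cells, at 0.28 (adjusted p = 0.214). Its mean over all arrays, 134.5, lay just above the intensity filter of 132.3. The group means of Nudt7 were above the filter with MRL24 (150.4) and rosiglitazone (140.3). They were below it in S273A (126.7) and wild-type cells (120.8), so its place among the tested genes rested on the ligand arrays. Idh1, which makes NADPH in the cytosol and the peroxisome, ranged from 693 to 939.9, the diphosphatase Nudt19 from 392 to 529, and the protease Lonp2 from 495 to 688. A second Idh1 probe set changed by 0.30 with MRL24 and by 0.22 with rosiglitazone, against -0.14 and 0.02 on the tested one.

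None of the 4 membrane carriers was called. Pxmp2, a channel of the peroxisomal membrane, read 169, 239 and 279 with rosiglitazone and 182, 238 and 156 in wild-type cells, at 0.23 (SE 0.17, adjusted p = 0.444). The cofactor carrier Slc25a17 ranged from 764 to 976, Pxmp4 from 529 to 712 and Mpv17, a protein of the inner mitochondrial membrane, from 502 to 659.

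The 3 genes below the intensity filter were Ehhadh, the L-bifunctional protein, Acox3, an oxidase of branched chains, and Abcd2, a transporter of very long chains. Ehhadh ranged from 5.86 to 48.2, Abcd2 from 34.7 to 72.2 and Acox3 from 85.3 to 176. Fitted without the filter, none of them was called in any comparison (adjusted p = 0.398 to 0.942). Ehhadh had intervals as wide as -0.48 to 1.07 with rosiglitazone over wild-type, an interval that includes 2-fold, so such a change was not detectable at this signal.

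With S273A over wild-type, 4 of 36 genes in limma's test had an unadjusted p under 0.05, namely Pex14, Scp2, Amacr and Ephx2, of which Amacr was lower. None of them was called after adjustment. The share of all genes under that unadjusted threshold is not given here, so the count shows no response of the list. Intervals for the 36 genes ran from -0.42 to 0.59 on the log2 scale at their widest, so none reached 2-fold in either direction. The median change was 0.03, with 22 of 36 genes above 0, while 48.4% of all genes were above 0. The summed fibroblast markers were 32389 to 35992 in S273A cells against 41046 to 46110 in wild-type cells, and the summed adipocyte markers, at 13289 to 14443 in S273A cells against 12393 to 14290 in wild-type cells, overlapped. All 6 fibroblast markers had every S273A array below the wild-type arrays, against 13.9% of all genes tested. Of the 7 adipocyte markers, Adipoq read 90.9 to 106 in S273A cells, above the 37.3 to 62.4 of wild-type cells, and the other 6 overlapped. The macrophage markers summed to 2918 to 3062 in S273A cells against 2234 to 2765 in wild-type cells, and 1 of the 6, Cd68, did not overlap. Their part in the S273A values was not tested.

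With rosiglitazone the adipocyte markers moved as well. Their sum was 30462 to 30868 with rosiglitazone and 19385 to 19595 with MRL24, against 12393 to 14290 in wild-type cells, most of it Fabp4, itself a PPARγ target. Marker by marker, 6 of 7 adipocyte markers with rosiglitazone and 3 of 7 with MRL24 had all arrays above the wild-type arrays, and none had all below. Of all genes tested, 12.1% and 15.6% lay above in this way. Adipoq and Cidec, among the 6, were below the intensity filter. The macrophage marker Cd68 lay below the wild-type arrays with both ligands, and the other 5 macrophage markers overlapped. The fibroblast markers, whose sum is mostly collagens, summed to 42247 to 43457 with rosiglitazone and 44949 to 47020 with MRL24, against 41046 to 46110 in wild-type cells. With rosiglitazone 4 of 6 of them (Col3a1, Thy1, Pdgfra and Pdgfrb) had all arrays below the wild-type arrays and the other 2 overlapped. Of all genes tested, 14.2% lay below. With MRL24 Pdgfra was below, Col1a1 above and the other 4 overlapped. In these bulk samples more fat cells and more RNA per fat cell cannot be told apart, and the part of either in the rise of the 7 genes was not tested, nor was that of the fibroblast markers. Without wild-type replicate 2, 6 of 36 genes rose with rosiglitazone, against 3.19% of all genes. In that setting 1 rose with MRL24 (Acaa1b), against 1.24% of all genes, and none was called with S273A, against 7.48% in either direction. Without rosiglitazone replicate 2 the rosiglitazone count was 4, against 2.25% of all genes higher. Without MRL24 replicate 2 the MRL24 count was 0, against 0.991% of all genes higher. Without MRL24 replicate 1 or 3 it was 1, against 1.23% or 0.565%.

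The 2 ligands, at the same dose and time, formed the 1 pair of compounds compared. Besides Acaa1b and Hsd17b4, 34 genes were not called, with differences of at most 0.28 in size and intervals that ran from -0.58 to 0.46 at their widest, so none reached 2-fold. A missed threshold does not show that the ligands acted alike on these genes. The median difference was 0.04 for the list and -0.02 for all genes.

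Further peroxisomal genes came from a list of 45 outside the 40, of which 31 were on the array and 17 were tested. With rosiglitazone 2 rose and 1 fell, against 3.94% of all genes higher and 4.58% lower. With MRL24 1 rose and 1 fell, against 3.39% higher and 2.47% lower. With S273A none was called, against 7.78% in either direction. Rosiglitazone over MRL24 gave 2 higher and none lower, against 1.5% of all genes higher and 1.16% lower. Ech1, a dienoyl-CoA isomerase of mitochondria and peroxisomes, read 3162, 3505 and 3486 with rosiglitazone, against 2629, 2414 and 2611 with MRL24 and 2366, 2515 and 2364 in wild-type cells. It rose by 0.48 with rosiglitazone over wild-type (SE 0.06, adjusted p = 4.26e-05) and was 0.40 higher than with MRL24 (adjusted p = 0.000578). Hsdl2, a dehydrogenase-like protein, read 449.6, 499.6 and 470.1 with rosiglitazone and 447, 415 and 424 with MRL24, against 315, 311.5 and 315 in wild-type cells. It rose with both ligands, by 0.57 (adjusted p = 0.000553) and 0.43 (adjusted p = 0.0129). Eci2, an enoyl-CoA isomerase, was 0.28 higher with rosiglitazone than with MRL24 (adjusted p = 0.0346). Xdh, xanthine dehydrogenase, read 825, 857 and 878 with rosiglitazone and 943, 1014 and 1027 with MRL24, against 1111, 1368 and 1169 in wild-type cells. It fell by 0.50 with rosiglitazone (adjusted p = 0.000481) and by 0.28 with MRL24 (adjusted p = 0.0385).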

How the data were processed

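The authors deposited array intensities of biotin-labelled RNA on a linear scale, already similar in distribution between arrays. How they were normalized was not given in the sources used here. All 12 columns were used. Of 22690 probe sets, 20380 carried 1 gene symbol, 691 several and 1555 none, and 64 were controls. The platform annotation was checked by Entrez ID for 20351 probe sets and no symbol changed. The probe set with the highest mean stood for a gene. Genes with a mean under the 30th percentile, 132.3, were left out, which left 8675. Values were taken as log2(intensity + 16), so folds and log2 changes of dim genes are understated; means and single array values are intensities. A single limma model (version 3.58.1, R 4.3.3; lmFit, eBayes with trend) took in the 12 arrays, with 8 residual degrees of freedom. Calls needed an adjusted p under 0.05 by Benjamini-Hochberg over all genes of a comparison. Intervals are 95%. Precision is limited by the number of arrays: with 3 against 3, an exact test can reach p = 0.1 at the lowest. The procedure was tested on simulated data. Tables and figures used python 3.11.15, pandas 2.3.3 and matplotlib 3.10.9.

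The members and lists were chosen with earlier results of these data known. Genes given with single array values were the called members, the tested member with the largest change in each role, and members singled out after their values were seen (Acaa1a, Amacr, Cat, Pex3, Pex6, Phyh and Nudt7); the others are given by range. The alternatives were the pseudocount (1 or 64), the filter (none or the 50th percentile), the scaling (quantile or equal medians), the mean of a gene's probe sets, a replicate block, fits of 2 groups, array weights and leaving out each array; a filter at the 30th percentile of all probe sets was chosen after seeing the data. Same-numbered replicates had correlations of deviations from -0.12 to 0.15, with 2 of 18 pairs over 0.1, so the numbers were not taken to pair the arrays.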

Additional observations from a re-analysis of the deposited data

How the results depend on the processing

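Across 23 alternatives, 223 of 250 recomputed values of the 11 called gene and comparison pairs stayed called and none changed sign. Acaa1b, Pex14, Scp2 and Hsd17b4 with rosiglitazone over wild-type, and Acaa1b with rosiglitazone over MRL24, stayed called wherever they were tested; Acaa1b is below a filter at the 50th percentile. Shares of all genes called in either direction are given beside the counts. The 7 genes called with rosiglitazone became 5 of 39 without the filter, against 4.95% of all genes. They became 6 of 25 with the 50th percentile filter, against 12.2%, and 4 of 36 in the 6-array fit, against 4.29%. The count was 8 with the mean of probe sets, against 8.73% of all genes, and 1 of the 8, Pex3, was lower. It was 4 to 8 when single arrays were left out, against 4.52% to 9.07% of all genes. The 2 called with MRL24 became 1 without the filter (1.82% of all genes) or with the 50th percentile filter (8.83%), and 0 in the 6-array fit (0.576%). They became 3 with the mean of probe sets, with Far1 added, against 5.71% of all genes. Without single arrays they became 0 to 3, against 0.807% to 9.66%. The 2 of rosiglitazone over MRL24 became 1 without the filter (1.4% of all genes), with the 50th percentile filter (4.32%) or with the replicate block (2.04%). Without single arrays they became 1 to 3, against 1.14% to 5.69%. The 0 of S273A became 1 with the 50th percentile filter (11.1% of all genes), equal medians (7.38%) or the mean of probe sets (7.27%). After quantile normalization it was 2 (Pex14 and Scp2), against 7.94% of all genes. Without single arrays it was 0 to 1, against 4.56% to 7.48%. Abcd4 was higher with rosiglitazone than with MRL24 after quantile normalization (adjusted p = 0.0373), equal medians (0.0441), array weights (0.0162) and in the 6-array fit (0.0458). Apart from members absent under a stricter filter, the cause of these changes was not tested. The replicate block ended the call of Hsd17b4 in rosiglitazone over MRL24 (adjusted p = 0.0589) and no other; with it 628 genes in all were called for rosiglitazone, 355 for MRL24, 547 for S273A and 177 between the ligands, against 739, 508, 675 and 231 without it, and 3 of 12 arrays correlated best with their own number. The split of all called genes moved with scaling: 294 higher and 214 lower with MRL24 became 227 and 443 with equal medians and 254 and 336 after quantile normalization, and 130 and 101 for rosiglitazone over MRL24 became 151 and 72 with equal medians. Leaving out single arrays moved the counts of all genes to 396 to 649 for S273A, 392 to 787 for rosiglitazone, 70 to 838 for MRL24 and 99 to 494 between the ligands; wild-type replicate 2 gave the 494 and 155 for MRL24. Without the filter 226 were called for MRL24, and with array weights 673 between the ligands. In the 6-array fits 372 were called for rosiglitazone, 50 for MRL24, 243 for S273A and 557 between the ligands. The counts of the genes in the list did not move with the pseudocount or the filter at the 30th percentile of all probe sets. Ehhadh, Abcd2 and Acox3 were too dim for a statement.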
